A study of Homo sapiens with 45 samples.

Results

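The S100 genes encode small proteins with EF-hand calcium-binding loops, and 10 of them were followed here on 45 arrays: S100A2, S100A3, S100A4, S100A6, S100A10, S100A11, S100A13, S100A14, S100A16 and S100P. They were taken by symbol, as the probe sets that the platform annotation ties to 1 gene symbol among these 10. That rule gave 13 probe sets of the 54675 on the array, with a second probe set for S100A6, S100A10 and S100A13. All 10 genes were among the 14997 genes tested. The arrays carried RNA of 3 established human cancer lines, HEY and SKOV3 from ovarian cancer and PC3 from prostate cancer. Each line was either labelled untransfected or had been lipid-transfected and harvested after 48 h. The transfected agents, at 33 nM, were Pre-miR precursors for miR-203a, for miR-205, for miR-429, and a negative control called miR-NC. This gave 15 groups of 3 arrays. Nothing in the labels says whether the 3 arrays of a group came from separate cultures, so p-values measure the spread between these arrays, which may be technical, and their precision is limited by having 3 arrays a group. Values are log2 intensities, errors beside a mean are SD over 3 arrays, and errors beside a difference are standard errors of the limma fit.

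S100 proteins bind calcium, change shape, and then dock on partner proteins inside the cell, among them annexins, myosin heavy chains and p53. Some members leave the cell and act on receptors such as RAGE. Several, S100A4 and S100P above all, are known from work on tumour cell movement, and S100A2, S100A14 and S100A16 are known from surface epithelia. The 3 miRNAs are abundant in epithelia, and miR-429, of the miR-200 family, is known to repress the ZEB transcription factors. The series compares how 3 lines respond to them.

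The mature miRNAs are shown because each comparison turns on which of them was added. The sequences are RefSeq's for GRCh38.p14, read 5′ to 3′, and the capitals mark the seed, bases 2 to 8, which pairs with target transcripts. The labels name the precursors without an arm, and the arm shown is the one these precursors are generally used for.
miR-203a-3p, chr14:104117469-104117490, strand +: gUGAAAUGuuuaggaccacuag
miR-205-5p, chr1:209432166-209432187, strand +: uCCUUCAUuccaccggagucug
miR-429, chr1:1169055-1169076, strand +: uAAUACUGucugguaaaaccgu
The 3 seeds differ from each other. The miR-429 seed is shared by miR-200b-3p and miR-200c-3p, while 0 other mature miRNAs of the RefSeq table carry the seed of miR-203a-3p or of miR-205-5p.

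Control probe sets and line markers were read on the same arrays. Probe sets along GAPDH, a housekeeping gene, were near level in SKOV3 (GAPDH 3′ minus 5′ between -0.00 and 0.07 in its 4 transfected groups) but unequal in HEY (1.47 to 7.34) and PC3 (2.34 to 5.46). Pairs of arrays within a transfected group correlated at 0.981 or more, and 0 pairs of arrays were identical. ERBB2, amplified in SKOV3, averaged 11.33 in SKOV3 with miR-NC, 6.83 in HEY and 6.37 in PC3. EPCAM, an epithelial surface protein, averaged 11.17 in PC3 with miR-NC, 7.12 in SKOV3 and 3.48 in HEY, whereas HOXB13, a prostate transcription factor, did not set PC3 (6.56) apart from SKOV3 (6.70). The arrays labelled untransfected went against their labels. ERBB2 averaged 12.31 on those labelled HEY and 7.60 on those labelled SKOV3. HOXB13 averaged 11.73 on those labelled SKOV3, and EPCAM averaged 4.03 on those labelled PC3. Tests were therefore made over the 36 transfected arrays, and the values on the other 9 are given under their labels only.

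The 3 lines gave very different readings for S100A4, S100A3, S100A2 and S100P and, on its brighter probe set, similar readings for S100A10. With miR-NC, 9 of the 10 genes were higher in SKOV3 than in HEY, by 0.52 to 8.04 log2 units. Of all genes tested 81.1% passed the threshold there, 34.8% higher and 46.3% lower. Against SKOV3, 8 genes were lower in PC3 and S100P was higher, where 83.9% of all genes tested passed, 36.6% lower and 47.3% higher. Against HEY, PC3 had 5 genes higher (S100A2, S100A4, S100A10, S100A14 and S100P) and 3 lower (S100A11, S100A13 and S100A16), where 62.2% of all genes tested passed, 28.1% higher and 34.1% lower. The median over the 10 genes was 2.46 for SKOV3 minus HEY beside -0.19 over all genes tested, -2.26 for PC3 minus SKOV3 beside 0.22, and 0.13 for PC3 minus HEY beside -0.08. The 5′, middle and 3′ GAPDH controls differed in the same direction between the lines: by 5.37, 4.70 and 1.53 for SKOV3 minus HEY, by -8.70, -6.69 and -3.49 for PC3 minus SKOV3, and by -3.33, -1.99 and -1.96 for PC3 minus HEY. Their part in the differences between lines was not tested.

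S100A4, which binds non-muscle myosin and is known for promoting cell movement, showed the largest range of the 10. With miR-NC it read 5.14, 5.09 and 4.93 on the HEY arrays, 13.05, 13.14 and 13.10 on the SKOV3 arrays and 7.66, 7.39 and 7.66 on the PC3 arrays. The lines did not overlap, with SKOV3 highest, PC3 between and HEY just above the median of all deposited values, 4.89. The difference was 8.04 ± 0.15 for SKOV3 minus HEY (limma adjusted p = 1.09e-26), -5.53 ± 0.15 for PC3 minus SKOV3 (adjusted p = 2.13e-23) and 2.52 ± 0.15 for PC3 minus HEY (adjusted p = 1.3e-14).

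S100P, a secreted S100 protein that also binds ezrin, had another order. It read 3.47, 2.90 and 3.99 in HEY with miR-NC, 5.37, 5.24 and 4.84 in SKOV3, and 8.07, 8.44 and 8.57 in PC3. All 3 HEY values lay below the median of all deposited values, the SKOV3 values lay on both sides of it, and PC3 lay above every array of the other two lines. PC3 exceeded SKOV3 by 3.21 ± 0.25 (adjusted p = 6.27e-13) and HEY by 4.91 ± 0.25 (adjusted p = 1.21e-16).

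S100A3, a zinc-binding member known from the hair cuticle, was high in SKOV3 alone. It read 8.41, 8.57 and 8.47 in SKOV3 with miR-NC, 4.03, 4.58 and 4.61 in HEY, and 4.44, 3.23 and 4.26 in PC3. HEY and PC3 overlapped below the median of all values and did not differ beyond their spread (-0.43 ± 0.28, adjusted p = 0.191), while SKOV3 exceeded HEY by 4.08 ± 0.28 (adjusted p = 5.74e-14).

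S100A2, known as a p53-binding protein of basal epithelial cells, read 8.40, 8.33 and 8.34 in HEY with miR-NC, 12.32, 12.43 and 12.37 in SKOV3, and 11.10, 11.03 and 11.13 in PC3. HEY stood alone at the low end. S100A2 was higher in PC3 than in HEY by 2.73 ± 0.14 (adjusted p = 3.68e-16) and lower in PC3 than in SKOV3 by 1.29 log2 units (-1.29 ± 0.14, adjusted p = 2.18e-09).

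S100A6, S100A13 and S100A16 were all highest in SKOV3. S100A6, or calcyclin, averaged 13.95 ± 0.10 (n = 3) in SKOV3, 10.76 ± 0.18 in HEY and 10.72 ± 0.09 in PC3, and HEY and PC3 overlapped. S100A13, which takes part in the release of FGF1 and interleukin 1 alpha, averaged 12.47 ± 0.03 in SKOV3, 9.86 ± 0.13 in HEY and 8.12 ± 0.30 in PC3. S100A16, a broadly expressed member, averaged 12.97 ± 0.07, 10.65 ± 0.14 and 9.63 ± 0.24 in the same order. Neither S100A13 nor S100A16 overlapped between any pair of lines, and PC3 was below HEY by 1.73 log2 units for S100A13 (-1.73 ± 0.17, adjusted p = 3.25e-10) and by 1.02 for S100A16 (-1.02 ± 0.13, adjusted p = 5.75e-08). The second S100A13 probe set gave no difference between SKOV3 and HEY past the threshold (0.19 ± 0.19, adjusted p = 0.357) where the brighter one gave 2.61 ± 0.17 (adjusted p = 1e-14).

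On the probe sets that represented the genes in tests, the partners of annexin A2 and annexin A1 varied least. S100A10, the annexin A2 partner whose loops no longer bind calcium, averaged 12.65 ± 0.06 in HEY with miR-NC, 13.17 ± 0.03 in SKOV3 and 12.96 ± 0.15 in PC3. Over the 12 transfected groups these means, from its brighter probe set, spanned 0.59 log2 units, the smallest range of the 10 genes, against 8.13 for S100A4, 7.63 for S100P and 4.51 for S100A3. The brighter probe set had transfected group means of 12.58 to 13.17, where the highest deposited value was 14.87. Whether signal levels off at such intensities was not tested, for S100A10 or for other bright genes. The dimmer S100A10 probe set spanned 2.28. It gave 1.13 ± 0.15 for SKOV3 minus HEY (adjusted p = 9.46e-08), 0.54 ± 0.15 for PC3 minus HEY (0.00335) and -0.59 ± 0.15 for PC3 minus SKOV3 (0.000868). On the brighter probe set the difference between PC3 and SKOV3 was small (-0.21 ± 0.09, adjusted p = 0.0281) and changed sign with quantile normalization (0.25, adjusted p = 0.0191). It missed the threshold without SKOV3 miR-NC replicate 1 (adjusted p = 0.0559) or 3 (0.0697) or PC3 miR-NC replicate 2 (0.181) or 3 (0.0562). S100A11, or calgizzarin, averaged 12.03 ± 0.02 in HEY, 12.12 ± 0.06 in SKOV3 and 11.10 ± 0.44 in PC3, and the 2 ovarian lines did not differ past the threshold (0.09 ± 0.14, adjusted p = 0.554). S100A14, an epithelial member that pairs with S100A16, was dim throughout, at 4.29 ± 0.49 in HEY, 5.02 ± 0.35 in SKOV3 and 5.45 ± 0.24 in PC3. It was higher in PC3 than in HEY (1.16 ± 0.23, adjusted p = 8.12e-05), and its difference between SKOV3 and HEY, 0.74 ± 0.23 with overlapping arrays, missed the threshold without SKOV3 miR-NC replicate 1 (0.53, adjusted p = 0.0549). PC3 and SKOV3 overlapped (0.43 ± 0.23, adjusted p = 0.0899), and that difference passed without the same array (0.63, adjusted p = 0.0234).

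**Figure D1:**
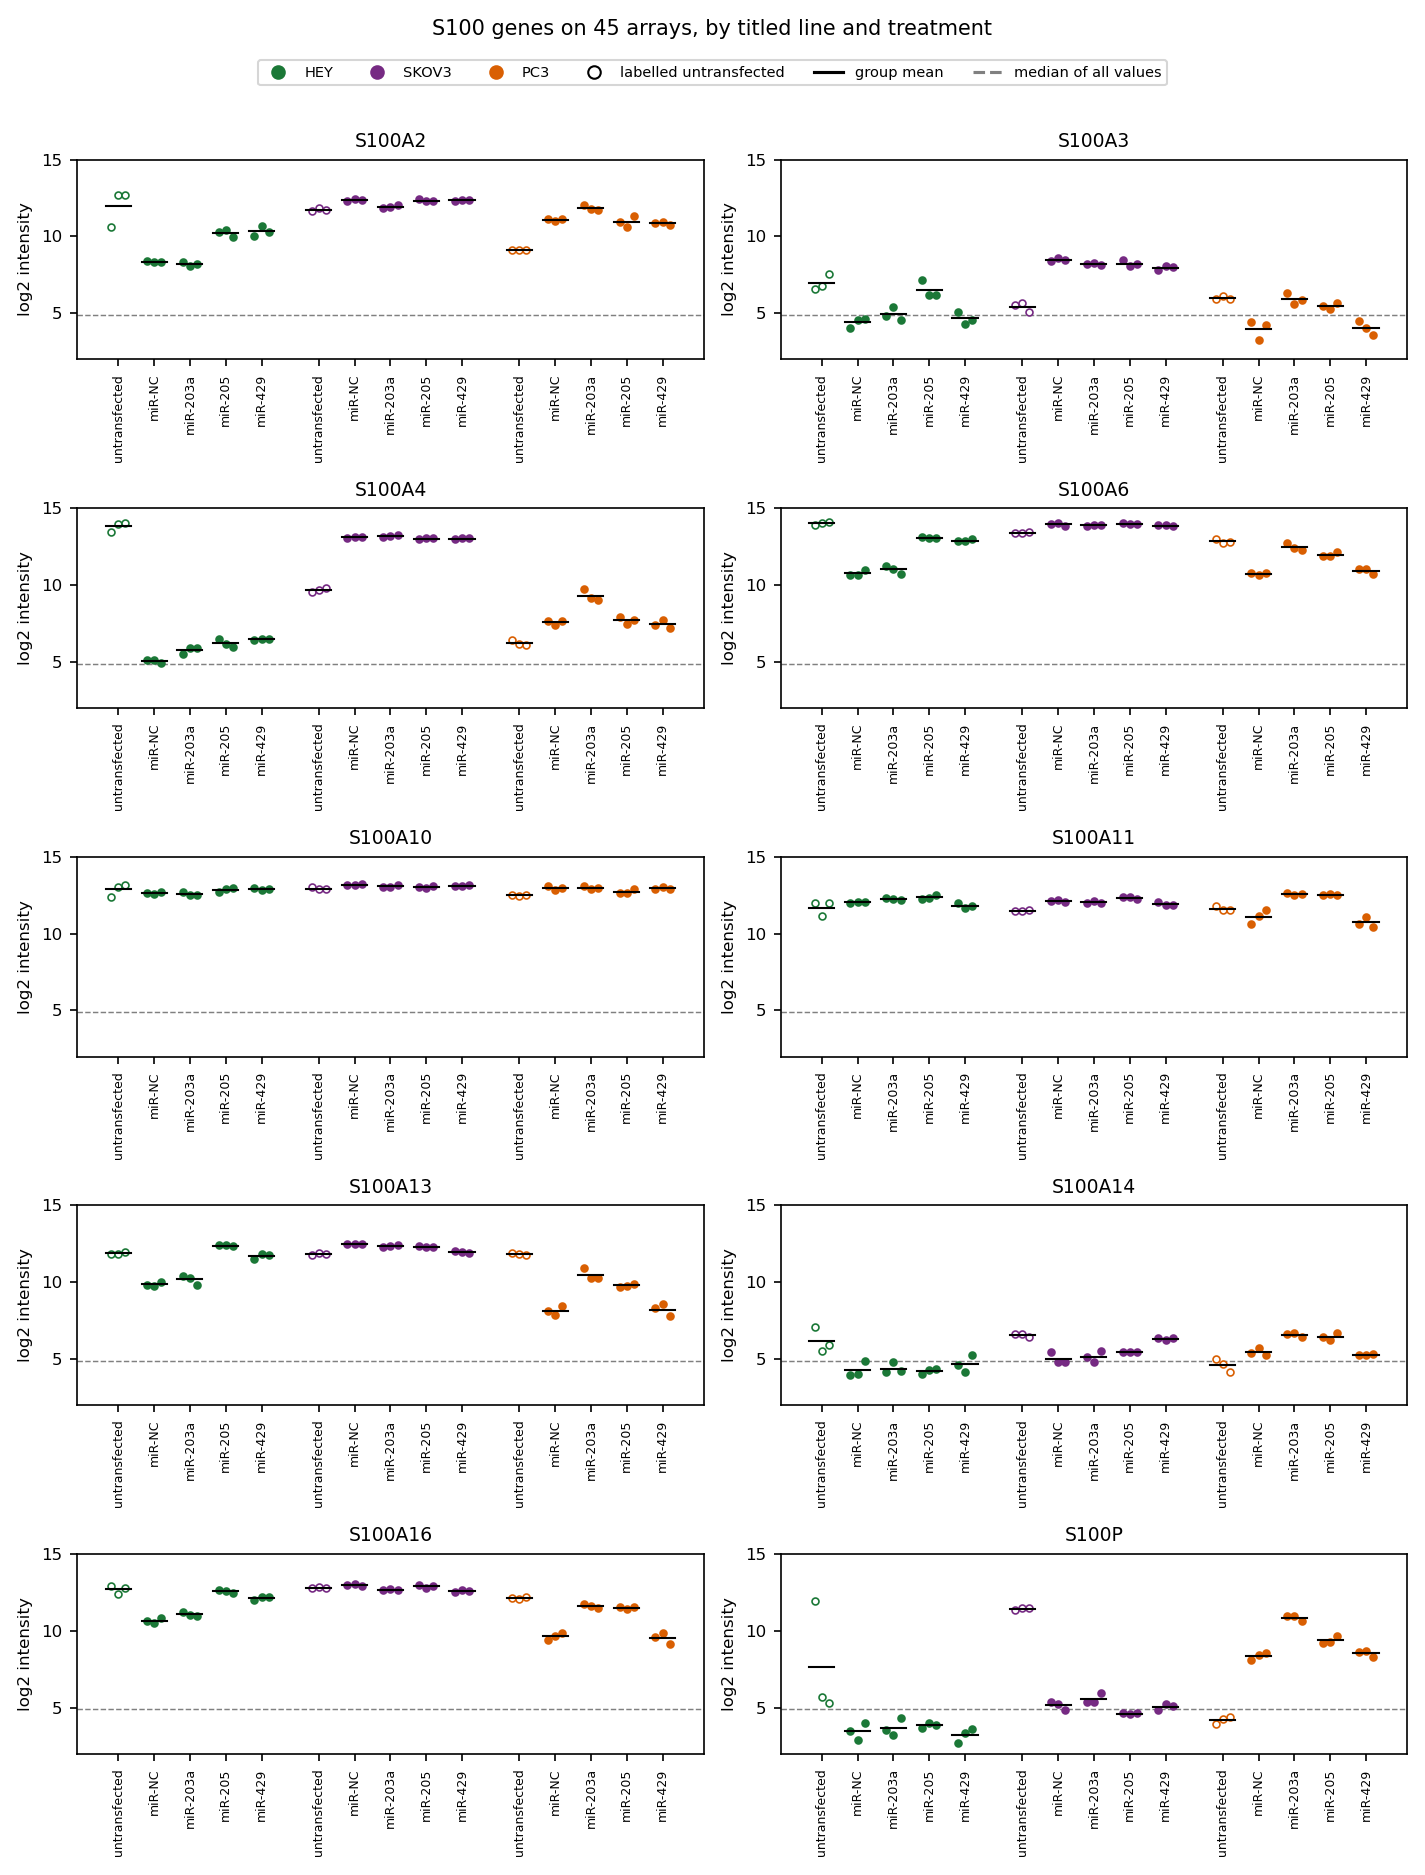
Each panel plots the log2 intensity of 1 S100 gene (y axis) on the 45 arrays by titled line and treatment (x axis), with 1 point per array, a bar at each group mean, open points for arrays labelled untransfected and a dashed line at the median of all deposited values. The 12 transfected group means of S100A10, on its brighter probe set, span 0.59 log2 units, S100A4 is highest in transfected SKOV3, and S100P is highest among transfected arrays in PC3.

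The change from miR-NC differed between the lines, as did the shifts of the GAPDH controls. For miR-203a the change from miR-NC differed between lines in 9 of the 10 genes, all but S100A10, where 53.3% of all genes tested differed (moderated F-test, adjusted p below 0.05). For miR-205 it differed in all 10, where 75.7% of genes differed. For miR-429 it differed in 6 of 10, S100A2, S100A4, S100A6, S100A13, S100A14 and S100A16, where 72% of genes differed, so that share was below that of all genes. Across the 9 comparisons with miR-NC, the S100 genes moved in 4 of them by the large amounts described next, and these were the 4 in which the GAPDH controls moved most. At the 5′ probe set GAPDH changed by 0.58 in HEY, -0.00 in SKOV3 and 4.95 in PC3 with miR-203a. What part the control shifts had in the differences between lines was not tested.

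In HEY with miR-205, 8 of the 10 genes were higher than with miR-NC and 0 lower, where 70.5% of all genes tested passed, 35.4% higher and 35.1% lower. The median change of the 10 was 1.50 beside 0.04 over all genes tested. S100A13 read 9.81, 9.76 and 10.00 with miR-NC and 12.39, 12.41 and 12.35 with miR-205, a rise of 2.53 ± 0.17 (adjusted p = 7.13e-14). S100A6 read 10.64, 10.67 and 10.97 with miR-NC and 13.10, 13.08 and 13.06 with miR-205, a rise of 2.32 ± 0.12 (adjusted p = 2.26e-16). These 2 genes left no overlap between the groups, and their miR-205 arrays lay closer together than their miR-NC arrays. The dimmer probe sets rose as well, by 1.33 ± 0.19 for S100A13 and 2.39 ± 0.20 for S100A6. S100A3 rose by 2.11 ± 0.28 from a level below the median of all values, S100A16 by 1.93 ± 0.13, S100A2 by 1.85 ± 0.14 and S100A4 by 1.15 ± 0.15. S100A14 (-0.06 ± 0.23) and S100P (0.39 ± 0.25, adjusted p = 0.166) did not pass, and both had group means below the median of all values there. S100P did pass without HEY miR-NC replicate 3 (0.65, adjusted p = 0.0267).

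S100A11 and S100A10 moved little in HEY with miR-205, by 0.33 ± 0.14 (adjusted p = 0.0462) and 0.20 ± 0.09 (adjusted p = 0.0469). For S100A11 the adjusted p passed the threshold only when HEY miR-205 replicate 1 was left out (0.0369), and without the other 5 arrays in turn it lay between 0.0717 and 0.163. For S100A10 it was 0.0784 without HEY miR-NC replicate 1, 0.148 without replicate 2, and 0.139 and 0.172 without HEY miR-205 replicates 2 and 3. With quantile normalization S100A10 differed by 0.06 (adjusted p = 0.569) and S100A11 by 0.30 (0.0655). Both also missed the threshold with all 45 arrays (0.147 for S100A10 and 0.0902 for S100A11), with array medians subtracted (0.0843 and 0.0725) and with no filter (0.0683 and 0.0595). The dimmer S100A10 probe set rose by 0.62 ± 0.15 (adjusted p = 0.000775).

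In HEY with miR-205 the GAPDH 5′ control rose from 8.42, 8.06 and 8.62 to 12.34, 12.57 and 11.94, the middle control by 3.94 and the 3′ control by 1.48. The ACTB controls differed by 1.22 at the 5′, 1.06 at the middle and -0.03 at the 3′ probe set. Their part in the rise of the S100 genes was not tested.

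In HEY with miR-429, 6 of the 10 genes were higher and 0 lower, where 62.1% of all genes tested passed, 23% higher and 39.1% lower. The genes that rose were S100A2, S100A4, S100A6, S100A10, S100A13 and S100A16, and the median of the 10 was 0.89 beside -0.16 over all genes. S100A6 read 12.87, 12.84 and 12.96, above all 3 miR-NC arrays, and rose by 2.13 ± 0.12 (adjusted p = 4.3e-15). S100A2 rose from 8.40, 8.33 and 8.34 to 10.05, 10.66 and 10.28, by 1.97 ± 0.14 (adjusted p = 1.9e-12). S100A4 read 6.39, 6.48 and 6.51 and rose by 1.41 ± 0.15 (adjusted p = 5.39e-09), and S100A16 rose by 1.46 ± 0.13 (adjusted p = 6.94e-11). S100A3, which rose with miR-205, was 0.25 ± 0.28 higher with miR-429 and did not pass (adjusted p = 0.448). Its means with miR-429 and miR-NC, 4.66 and 4.41, both lay below the median of all values. S100A14, at 0.36 ± 0.23 (adjusted p = 0.179), passed without HEY miR-NC replicate 3 (0.65, adjusted p = 0.0206) or without HEY miR-429 replicate 2 (0.63, adjusted p = 0.027).

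Probe sets of the same gene disagreed in this comparison. S100A13 rose by 1.83 ± 0.17 on its brighter probe set (adjusted p = 1.59e-10) and fell by 1.02 on the dimmer one (-1.02 ± 0.19, adjusted p = 3.38e-05). S100A10 rose by 0.23 ± 0.09 on the brighter probe set (adjusted p = 0.0236) and by 2.09 ± 0.15 on the dimmer one (adjusted p = 1.38e-12), and the former missed the threshold without HEY miR-NC replicate 2 (0.0905) or HEY miR-429 replicate 1 (0.0777). With quantile normalization the brighter S100A10 probe set differed by 0.07 (adjusted p = 0.527), and it also missed the threshold in a fit per line (0.0527) and with all 45 arrays (0.0978). The 2 probe sets of S100A6 agreed in sign, at 2.13 ± 0.12 and 1.21 ± 0.20. The GAPDH controls disagreed likewise: 5′ was lower by 2.11 log2 units (-2.11) while the middle and 3′ probe sets were higher by 1.65 and 1.31, and the ACTB 5′ control was lower (-0.97) and the middle one higher (1.74). Their part in the S100 values was not tested.

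In PC3 with miR-203a, 9 of the 10 genes were higher and 0 lower, where 62.7% of all genes tested passed, 33.9% higher and 28.8% lower. The median of the 10 was 1.75 beside 0.05 over all genes. S100P rose most, from 8.07, 8.44 and 8.57 with miR-NC to 10.99, 10.93 and 10.62, a difference of 2.49 ± 0.25 or 5.61-fold (adjusted p = 1.01e-09). S100A4 rose from 7.66, 7.39 and 7.66 to 9.74, 9.15 and 9.03, by 1.74 ± 0.15 or 3.34-fold (adjusted p = 1.1e-10). Neither gene overlapped between the groups. S100A13 rose by 2.36 ± 0.17, S100A16 by 1.97 ± 0.13, S100A3 by 1.94 ± 0.28, S100A6 by 1.76 ± 0.12, S100A11 by 1.48 ± 0.14, S100A14 by 1.13 ± 0.23 and S100A2 by 0.75 ± 0.14. The dimmer probe sets of S100A13 and S100A6 rose by 2.22 ± 0.19 and 0.99 ± 0.20. S100A10 alone did not pass (0.02 ± 0.09, adjusted p = 0.885), at 13.08, 12.90 and 12.94 against 13.11, 12.81 and 12.95.

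In PC3 with miR-205, 7 genes were higher and 1 lower, where 55% of all genes tested passed, 31.5% higher and 23.4% lower, and the median of the 10 was 1.13 beside 0.06. S100A16 rose from 9.40, 9.63 and 9.87 to 11.55, 11.44 and 11.52, by 1.87 ± 0.13 (adjusted p = 8.84e-13). S100A11 rose from 10.65, 11.13 and 11.53 to 12.48, 12.55 and 12.51, by 1.41 ± 0.14 (adjusted p = 2.23e-09). The groups did not overlap for either gene, and the miR-NC arrays of S100A11 were the more scattered (SD 0.44 against 0.03 with miR-205). S100A13 (1.67 ± 0.17), S100A3 (1.47 ± 0.28), S100A6 (1.24 ± 0.12), S100P (1.02 ± 0.25) and S100A14 (1.01 ± 0.23) also rose. S100P was short of the threshold in a fit that added the arrays labelled untransfected (adjusted p = 0.276), with the difference still 1.02.

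S100A4 and S100A2 did not pass in PC3 with miR-205. S100A4 read 7.90, 7.44 and 7.74 against 7.66, 7.39 and 7.66 with miR-NC (0.13 ± 0.15, adjusted p = 0.518), and S100A2 differed by -0.14 ± 0.14 (adjusted p = 0.451). Both groups overlapped for each gene. S100A10 was lower (-0.24 ± 0.09, adjusted p = 0.0251), with overlapping arrays, and missed the threshold without PC3 miR-NC replicate 1 (0.161) or PC3 miR-205 replicate 1 (0.127) or 2 (0.0959). It also missed it in a fit per line and with all 45 arrays (both 0.105) and as the mean of its probe sets (-0.15, adjusted p = 0.22), and the dimmer probe set differed by -0.05 ± 0.15 (adjusted p = 0.795).

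The same PC3 arrays moved at their control probe sets. GAPDH 5′ read 3.94, 4.89 and 6.29 with miR-NC, 10.37, 9.97 and 9.62 with miR-203a and 9.28, 8.72 and 8.11 with miR-205. The differences from miR-NC were 4.95 at the 5′, 4.05 at the middle and 2.01 at the 3′ probe set with miR-203a, and 3.66, 3.27 and 1.82 with miR-205. The ACTB controls differed by 3.73 and 2.73 at the 5′, 3.17 and 2.34 at the middle and 0.23 and 0.35 at the 3′ probe set. Their part in the S100 changes was not tested.

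Set directly against miR-203a in PC3, miR-205 left 6 of the 10 genes lower and 0 higher, where 32.1% of all genes tested passed, 15.5% lower and 16.6% higher. S100A4 was lower by 1.61 log2 units (-1.61 ± 0.15, adjusted p = 2.35e-09) and S100P by 1.46 (-1.46 ± 0.25, adjusted p = 3.62e-05). For both genes the miR-205 arrays all lay below the miR-203a arrays. S100A2 (-0.89 ± 0.14), S100A13 (-0.69 ± 0.17), S100A6 (-0.51 ± 0.12) and S100A10 (-0.25 ± 0.09, adjusted p = 0.0289) were lower too. The dimmer probe sets of S100A6 (-0.26 ± 0.20, adjusted p = 0.386) and S100A10 (-0.33 ± 0.15, adjusted p = 0.116) did not pass, while that of S100A13 did (-0.67 ± 0.19, adjusted p = 0.00934). S100A10 was also short of the threshold without PC3 miR-203a replicate 1 (0.147) or PC3 miR-205 replicate 1 (0.146) or 2 (0.11). The same call was lost with all 45 arrays (adjusted p = 0.128), in a fit per line (0.129) and with array medians subtracted (0.0622). S100A11 (-0.06 ± 0.14), S100A16 (-0.10 ± 0.13), S100A14 (-0.13 ± 0.23) and S100A3 (-0.47 ± 0.28) did not pass. The GAPDH controls differed by -1.29 at the 5′, -0.78 at the middle and -0.19 at the 3′ probe set, and their part was not tested. The call for S100P was lost in a fit with the arrays labelled untransfected (adjusted p = 0.166), although the difference stayed at -1.46. That fit took in the arrays labelled untransfected HEY, where S100P had an SD of 3.71. The call for S100A4 was kept under every alternative that had its probe set.

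**Figure D2:**
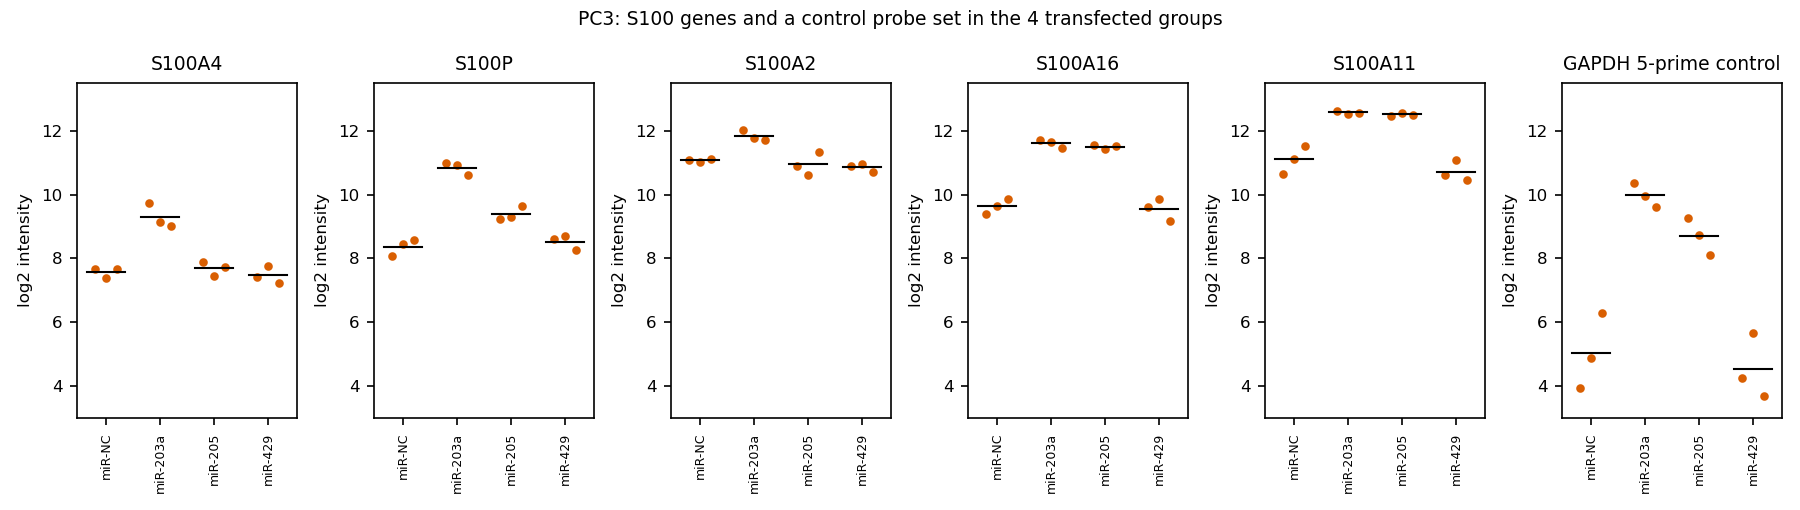
The panels plot log2 intensity (y axis) of 5 S100 genes and the GAPDH 5′ control on the PC3 arrays, by transfected precursor (x axis), with 1 point per array and a bar at the mean. S100A16 and S100A11 lie high with both miR-203a and miR-205, S100A4 and S100A2 lie high with miR-203a and near miR-NC with miR-205, and the control lies high with both.

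The other 5 comparisons with miR-NC had smaller control shifts, at most 0.58 in size at the GAPDH 5′ probe set, and held 7 calls in all. S100A14 in SKOV3 with miR-429 and S100A4 in HEY with miR-203a passed in each of 6 refits that left out 1 array, and the other 5 did not.

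In SKOV3 with miR-429, 1 gene was higher and 2 lower, where 29.2% of all genes tested passed, 19.3% higher and 9.93% lower, and the median of the 10 was -0.09 beside -0.00. S100A14 read 5.43, 4.82 and 4.82 with miR-NC, 5.13, 4.81 and 5.53 with miR-203a, 5.43, 5.48 and 5.43 with miR-205 and 6.35, 6.23 and 6.37 with miR-429. The miR-429 arrays lay above every other transfected SKOV3 array. The rise was 1.29 ± 0.23, or 2.45-fold (adjusted p = 7.36e-05), and lay between 1.19 and 1.50 when 1 array was left out. The GAPDH controls differed by -0.04 (5′), -0.17 (middle) and -0.12 (3′). In the other lines miR-429 left S100A14 at 0.36 ± 0.23 above miR-NC in HEY and at -0.18 ± 0.23 in PC3, neither past the threshold, and the change differed between lines (F-test adjusted p = 0.00103).

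S100A13 and S100A16 went the other way in SKOV3 with miR-429. S100A13 read 12.45, 12.51 and 12.45 with miR-NC and 12.01, 11.97 and 11.91 with miR-429 (-0.50 ± 0.17, adjusted p = 0.023), and S100A16 read 12.96, 13.04 and 12.91 against 12.54, 12.64 and 12.59 (-0.38 ± 0.13, adjusted p = 0.0248). Neither gene's arrays overlapped, yet each call was lost without 1 of 4 arrays. For S100A13 these were SKOV3 miR-NC replicates 1 (0.0524) and 2 (0.0643) and SKOV3 miR-429 replicates 2 (0.0512) and 3 (0.0701), and for S100A16 they were miR-NC replicates 1 (0.0564) and 2 (0.0856) and miR-429 replicates 1 (0.0779) and 3 (0.0586), as adjusted p. The dimmer S100A13 probe set gave 0.01 ± 0.19 (adjusted p = 0.983). S100A3 differed by -0.53 ± 0.28 with no overlap and did not pass (adjusted p = 0.165), but did in a fit of SKOV3 alone (adjusted p = 0.00236).

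SKOV3 with miR-203a had 1 gene lower, S100A2, and 0 higher, where 16.7% of all genes tested passed, 7.15% lower and 9.56% higher. S100A2 read 11.85, 11.89 and 12.02 against 12.32, 12.43 and 12.37 with miR-NC, without overlap (-0.45 ± 0.14, adjusted p = 0.0273). The call was lost without SKOV3 miR-NC replicate 2 (adjusted p = 0.0927) or 3 (0.0637), or without SKOV3 miR-203a replicate 1 (0.0916) or 2 (0.0829). SKOV3 with miR-205 had 0 genes past the threshold in the limma fit, where 32.4% of all genes tested were past it, 20.8% higher and 11.6% lower. At an unadjusted p below 0.05 there was 1, S100P, at 4.63, 4.57 and 4.65 against 5.37, 5.24 and 4.84 (-0.53 ± 0.25, adjusted p = 0.105), and a fit of SKOV3 alone called that gene (adjusted p = 0.0224).

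**Figure D3:**
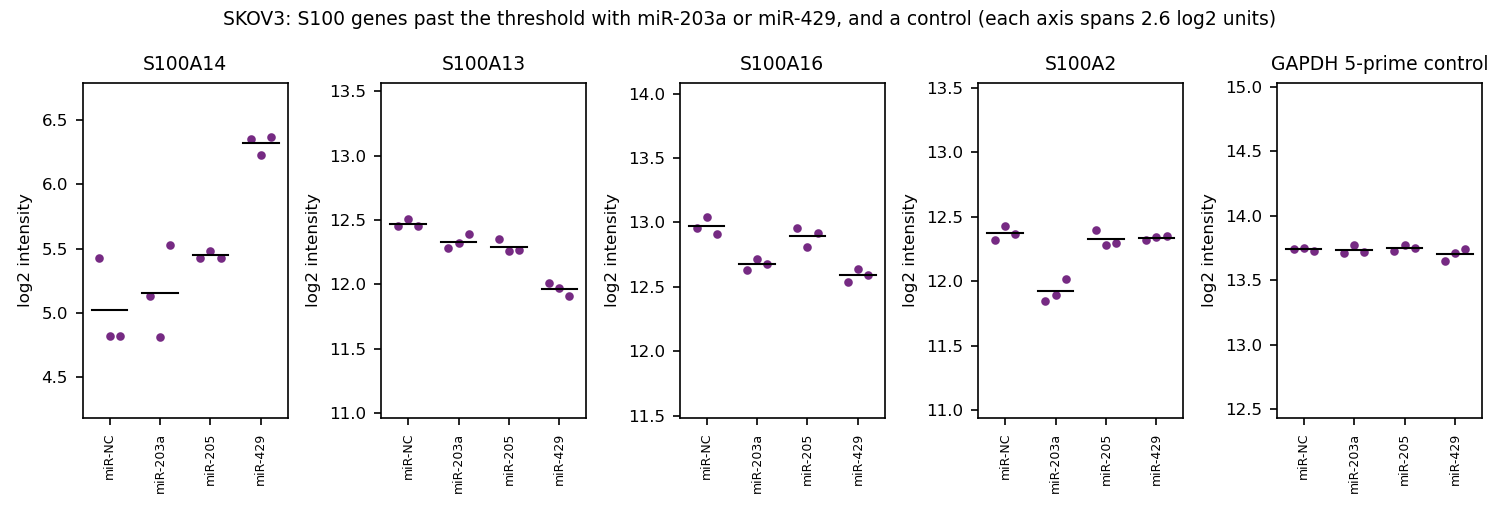
The panels plot log2 intensity (y axis, spanning the same number of log2 units in each) of 4 S100 genes and the GAPDH 5′ control on the SKOV3 arrays by transfected precursor (x axis), with 1 point per array and a bar at the mean. The 3 miR-429 arrays of S100A14 lie at 6.23 to 6.37, above the rest, and the control stays at 13.65 to 13.77.

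In HEY with miR-203a, 2 genes were higher and 0 lower, where 18.6% of all genes tested passed, 8.49% higher and 10.1% lower. S100A4 read 5.53, 5.89 and 5.88 against 5.14, 5.09 and 4.93 with miR-NC, with no overlap, a rise of 0.72 ± 0.15 (adjusted p = 0.00123), or 0.65 to 0.83 with 1 array left out. S100A16 read 11.25, 11.02 and 10.97 against 10.62, 10.53 and 10.81, a rise of 0.43 ± 0.13 (adjusted p = 0.0179) that was lost without HEY miR-NC replicate 1 (0.0598) or 2 (0.0932) or HEY miR-203a replicate 1 (0.113). S100A6, at 0.24 ± 0.12 (adjusted p = 0.157), passed without HEY miR-203a replicate 3 (0.38, adjusted p = 0.0285). The controls were higher with miR-203a by 0.58 at GAPDH 5′ and 0.75 at ACTB 5′, and their part was not tested.

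In PC3 with miR-429, 1 gene was lower, S100A11, and 0 higher, where 51% of all genes tested passed, 31% lower and 20.1% higher. S100A11 read 10.63, 11.09 and 10.45 against 10.65, 11.13 and 11.53 with miR-NC, and the groups overlapped (-0.38 ± 0.14, adjusted p = 0.0297). It missed the threshold without PC3 miR-NC replicate 2 (adjusted p = 0.0687) or 3 (0.33), or without PC3 miR-429 replicate 1 (0.0966) or 3 (0.202), while S100A6, at 0.20 ± 0.12, passed without PC3 miR-429 replicate 3 (0.30, adjusted p = 0.0495). The medians of whole arrays, dim probe sets included, stood 0.41 log2 units lower with miR-429 than with miR-NC, 4.50 against 4.91. Among the genes tested the median change was smaller, at -0.11, and over the 10 genes it was -0.05. With array medians subtracted the difference of S100A11 was 0.03 (adjusted p = 0.88), and 5 other genes were higher: S100A6 by 0.61, S100P by 0.57, S100A13 by 0.50, S100A10 by 0.39 and S100A16 by 0.32. S100A10, S100A11 and S100A16 thus changed sign with the scaling, though S100A10 (-0.01 ± 0.09) and S100A16 (-0.08 ± 0.13) had not passed as deposited. S100A6, S100A13 and S100P were higher under both, by 0.20 ± 0.12, 0.10 ± 0.17 and 0.16 ± 0.25 as deposited, without passing. With quantile normalization S100A2 (-0.51) and S100A10 (-0.25) were lower beside S100A11, and the dimmer S100A10 probe set was lower in the values as deposited (-0.73 ± 0.15, adjusted p = 0.000286).

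**Figure D4:**
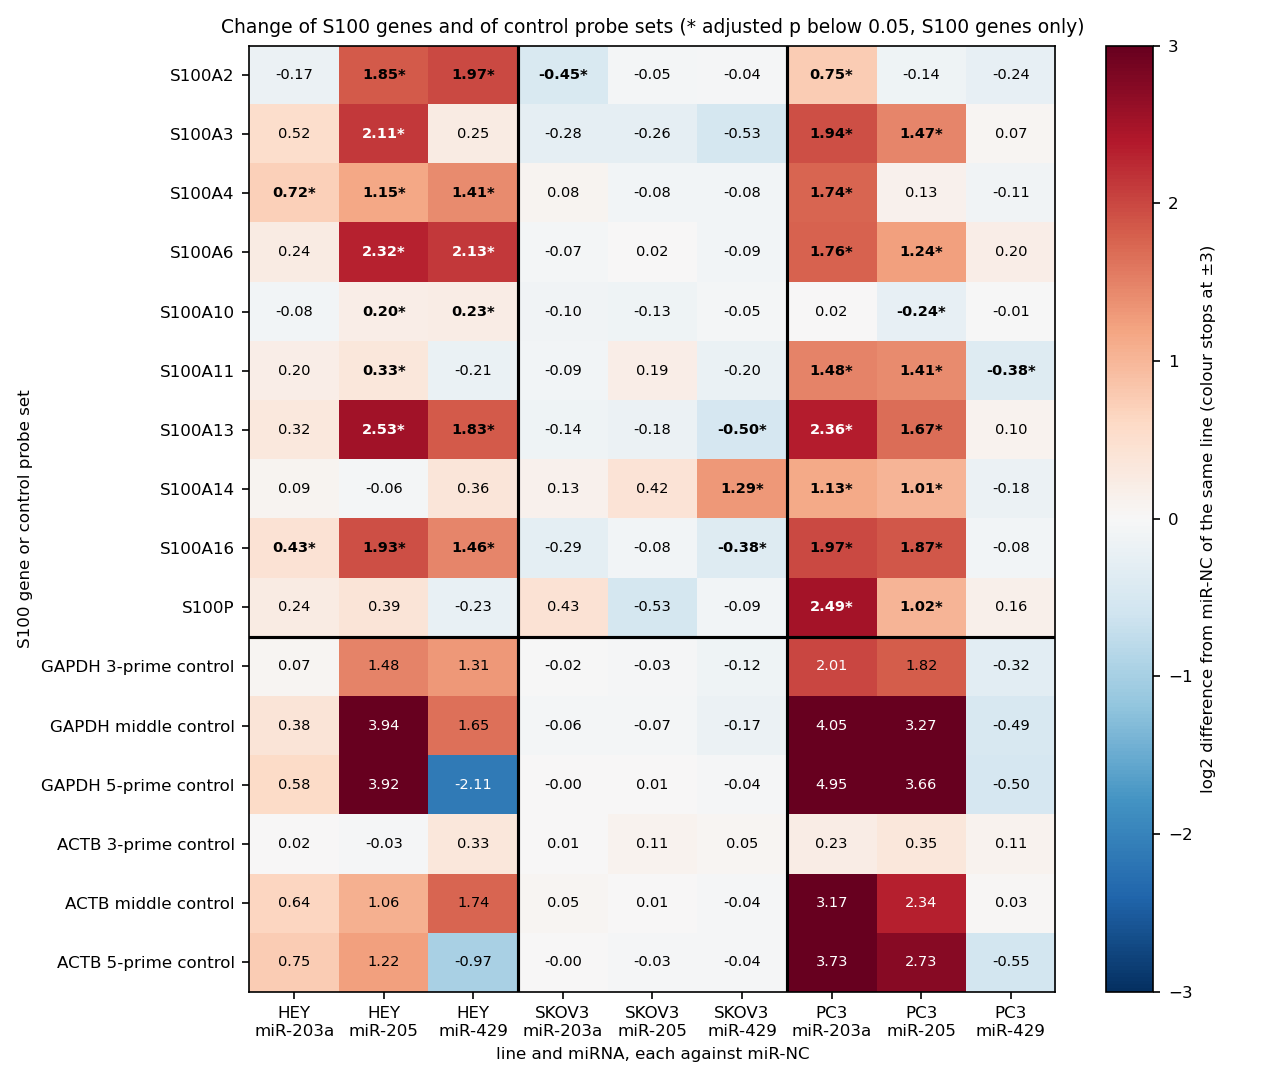
The grid gives the log2 difference from miR-NC of the same line (colour, stopping at 3 in either direction, and printed value) for each S100 gene and for 6 GAPDH and ACTB control probe sets (rows) in the 9 combinations of line and miRNA (columns), with stars on S100 values at an adjusted p below 0.05. The column of HEY with miR-205 and those of PC3 with either miR-203a or miR-205 are red for most S100 genes and for the GAPDH controls, and SKOV3 is pale apart from S100A14 with miR-429.

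Relative to each other, S100A6, S100A13 and S100A16 varied most alike once the mean of each line was taken out. Over the 12 transfected groups Pearson's r between these centred means was 0.97 for S100A6 with S100A13, 0.97 for S100A13 with S100A16 and 0.93 for S100A6 with S100A16. For S100A10 the values ran from -0.33 with S100A11 to 0.80 with S100A2. The groups share lines, miR-NC arrays and the control shifts above, and the values are a description over 12 points. Without centring, the genes whose group means were most like S100A4 were CD99 (r = 0.994), CHCHD1 and RAB9A (both 0.984). For S100P they were FXYD3 (0.995), RBP7 (0.988) and HOXC13 (0.983), and for S100A3 they were RTEL1, PLD3 (both 0.995) and PGD (0.994).

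Of the 10 members 9 lie on chromosome 1 and S100P on chromosome 4. In RefSeq's order of protein-coding genes S100A6, S100A5, S100A4, S100A3, S100A2, S100A16, S100A14 and S100A13 follow each other without another gene between them, and S100A10 and S100A11 lie side by side elsewhere on the chromosome. The neighbours S100A16 and S100A14 did not move together in SKOV3 with miR-429, where S100A14 rose and S100A16 fell. In HEY with miR-429, S100A2 rose by 1.97 ± 0.14 and S100A3 was at 0.25 ± 0.28. Both S100A3 means there (4.66 and 4.41) lay below the median of all values, where signal over background limits the size of a change. The difference between neighbours was not tested.

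The bases before the start of S100A14, S100A4 and S100P are shown because S100A14 rose in SKOV3 with miR-429, and because S100A4 and S100P had the largest differences among the 6 genes lower with miR-205 than with miR-203a in PC3. They were chosen after those values were seen. They are the 250 bases upstream in RefSeq's table for GRCh38.p14, on the gene's strand, and the capitals mark CACCTG or its reverse complement CAGGTG, the E-box letters that the ZEB repressors are known to bind. The 2 spellings are the same site on opposite strands and were counted once.
S100A14, chr1:153616326-153616575, strand -: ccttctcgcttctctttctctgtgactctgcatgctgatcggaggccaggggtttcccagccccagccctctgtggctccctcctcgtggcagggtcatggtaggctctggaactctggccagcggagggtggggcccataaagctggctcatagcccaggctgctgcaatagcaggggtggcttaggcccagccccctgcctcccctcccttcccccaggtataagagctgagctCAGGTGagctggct
S100A4, chr1:153545807-153546056, strand -: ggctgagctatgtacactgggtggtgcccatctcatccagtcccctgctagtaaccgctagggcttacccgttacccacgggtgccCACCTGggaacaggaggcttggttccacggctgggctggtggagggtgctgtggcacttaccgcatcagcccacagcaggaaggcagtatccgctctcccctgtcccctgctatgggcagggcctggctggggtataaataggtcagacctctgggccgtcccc
S100P, chr4:6693628-6693877, strand +: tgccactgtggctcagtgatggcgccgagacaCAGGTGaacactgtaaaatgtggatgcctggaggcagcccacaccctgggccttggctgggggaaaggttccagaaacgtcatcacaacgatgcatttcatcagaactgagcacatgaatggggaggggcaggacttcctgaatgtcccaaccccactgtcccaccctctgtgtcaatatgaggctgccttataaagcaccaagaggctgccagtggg
Each of the 3 windows holds 1 such site. Among the 14 windows of the 10 members 5 hold it, those of S100A14, S100A4 and S100P and 1 window each of S100A2 and S100A16, while 17.5% of all 35116 windows of this length do. A match is a description of letters, and binding was not measured.

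The other S100 genes were mostly dim. Of 10 listed (S100A1, S100A5, S100A7, S100A7A, S100A8, S100A9, S100A12, S100B, S100G and S100Z), 4 reached the median of all values in a transfected group and were tested: S100A1, S100A5, S100A7A and S100A9. The calprotectin subunit S100A8 had a highest group mean of 3.31 over its 2 probe sets, and its partner S100A9 reached 6.12 in PC3 with miR-203a, where it rose by 1.33 ± 0.24 (adjusted p = 2.03e-05). With S100A5 (0.99 ± 0.25) and S100A1 (0.39 ± 0.15), 3 of the 4 rose there, where 33.9% of all genes rose. In HEY with miR-205, S100A5 (1.48 ± 0.25), S100A1 (1.25 ± 0.15) and S100A7A (0.89 ± 0.21) rose, 3 of the 4. That is beside 35.4% of all genes tested. With miR-429, 2 of the 4 fell and 0 rose in HEY (S100A9 at -0.76 ± 0.24 and S100A1 at -0.51 ± 0.15, where 39.1% of all genes fell), and 2 fell and 0 rose in PC3 (S100A5 at -0.81 ± 0.25 and S100A7A at -0.75 ± 0.21, where 31% fell). In SKOV3, 0 of the 4 passed with any of the 3 miRNAs. Of all genes tested there, 16.7% passed with miR-203a, 32.4% with miR-205 and 29.2% with miR-429.

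The annexins, to which several S100 proteins bind, moved in both directions. Of 12 listed 10 were tested. With miR-429 in SKOV3, for example, 3 rose and 2 fell, where 19.3% of all genes tested rose and 9.93% fell. ANXA7 rose there by 0.98 ± 0.13 (adjusted p = 7.22e-07). ANXA6 rose by 2.62 ± 0.18 in HEY with miR-205, 1.09 ± 0.18 in HEY with miR-429, 1.57 ± 0.18 in PC3 with miR-203a and 1.36 ± 0.18 in PC3 with miR-205, and fell in SKOV3 (-0.68 ± 0.18) and PC3 (-0.81 ± 0.18) with miR-429. The median change of the annexins in the 4 comparisons where ANXA6 rose was 0.15, 0.19, -0.04 and 0.15, beside 0.04, -0.16, 0.05 and 0.06 over all genes.

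Among 25 tested partners and receptors of S100 proteins, 10 rose and 5 fell in PC3 with miR-203a, and 6 rose and 11 fell in HEY with miR-205. Of all genes tested 33.9% rose and 28.8% fell in the former and 35.4% rose and 35.1% fell in the latter, so the share of the list that passed was near that of all genes. STIP1, a co-chaperone bound by several S100 proteins, rose by 2.55 ± 0.16 and 2.35 ± 0.16 in these comparisons. FGF1, which S100A13 helps to export, rose by 2.07 ± 0.18 in PC3 with miR-205 (adjusted p = 7.47e-11), and IL1A, its other cargo, fell with miR-205 in HEY (-1.39 ± 0.18, adjusted p = 5.23e-08) and rose with it in SKOV3 (0.59 ± 0.18, adjusted p = 0.0102). MDM2, whose protein binds several S100 proteins and p53, rose in SKOV3 by 0.80 ± 0.14 with miR-205 and 1.26 ± 0.14 with miR-429. The median of this list stayed between -0.20 and 0.14 in all 9 comparisons with miR-NC.

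Calmodulins and other EF-hand genes, with 11 of 16 tested, rose in 7 cases and fell in 1 in PC3 with miR-203a, with a median of 0.38 beside 0.05 over all genes, of which 33.9% rose and 28.8% fell. In HEY with miR-205, 3 rose and 2 fell, where 35.4% of all genes rose and 35.1% fell, with a median of 0.11 beside 0.04. In SKOV3 with miR-429, 3 rose and 1 fell, where 19.3% of all genes rose and 9.93% fell, with a median of -0.04 beside -0.00. For CIB1, a calcium- and integrin-binding protein, the miR-203a arrays of PC3 stood 2.69 ± 0.19 above miR-NC. The miR-205 arrays of HEY stood 2.73 ± 0.19 above theirs. Among neighbours of the S100 cluster, with 12 of 20 tested, 7 rose and 3 fell in HEY with miR-205 (median 0.68 beside 0.04, with 35.4% and 35.1% of all genes) and 4 rose and 1 fell in PC3 with miR-203a (median 0.21). ILF2, a neighbour with no part in calcium binding, rose by 2.44 ± 0.13 in HEY with miR-205 and 1.46 ± 0.13 in PC3 with miR-203a.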

How the data were processed

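RNA from 3 human cell lines was amplified from the 3′ end and labelled with biotin, per the labels' protocols. The authors deposited 1 log2 intensity per probe set and array, and RMA is named in the submitters' processing notes without a version. Distributions differ between columns, by up to 0.98 at a percentile, which a single quantile step would have removed.

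Of 54675 probe sets, 41097 carried 1 symbol, 1801 several and 11777 none. Of the 1-symbol probe sets 41043 matched a RefSeq gene ID. Those whose highest transfected group mean exceeded 4.89, the median of all values, were kept, and the brightest represented a gene, which gave 14997 genes. Group means of the 36 transfected arrays were fitted with limma 3.58.1 (R 4.3.3), with 24 residual degrees of freedom, two-sided moderated tests and Benjamini-Hochberg adjustment over all genes, threshold 0.05. Named are all 10 members and, of each other list, up to 3 passing genes with the largest change per comparison. The members and lists were chosen with earlier results of these data known.

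On simulated data the fit recovered 84% and 89% of 100 genes changed by 1 log2 unit (HEY with miR-203a, PC3 with miR-205) and 41% and 45% of those changed by 0.5. It called 7 and 11 of 14797 unchanged genes. The simulation left nearly all genes unchanged, with independent noise and no shift of whole groups, unlike the comparisons above. These rates therefore do not give the error of the calls reported here. Replicate numbers did not pair arrays (median correlation of deviations 0.01, range -0.11 to 0.14, over 54 pairs of the same number). Blood cell markers were at 5.58 or less in every group (4 of the listed genes have a 1-symbol probe set). Alternatives were another normalization or filter, other probe sets, a fit per line, all 45 arrays, a replicate block, a robust prior, a 2-fold minimum and leaving out each array. Figures were drawn with matplotlib 3.10.9 in Python 3.11.15. Protein sequences and target-site searches were not used here.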

Additional observations from a re-analysis of the deposited data

Results flagged for a closer look

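A moderated F-test of the change from miR-NC across HEY, SKOV3 and PC3 passed the threshold for 25 of the 30 pairs of S100 gene and miRNA. Of all genes tested, 53.3% passed it with miR-203a, 75.7% with miR-205 and 72% with miR-429. The adjusted p-values of the S100 genes follow. With miR-203a they were S100A2 (3.55e-05), S100A3 (0.000116), S100A4 (1.46e-06), S100A6 (6.61e-10), S100A11 (5.27e-07), S100A13 (1.94e-09), S100A14 (0.0123), S100A16 (2.06e-10) and S100P (4.62e-06). With miR-205 they were S100A2 (5.46e-10), S100A3 (1.58e-05), S100A4 (2.15e-05), S100A6 (4.83e-12), S100A10 (0.00719), S100A11 (6e-06), S100A13 (1.66e-10), S100A14 (0.0168), S100A16 (4.05e-11) and S100P (0.000994). With miR-429 they were S100A2 (2.44e-10), S100A4 (3.95e-07), S100A6 (5.88e-12), S100A13 (4.45e-09), S100A14 (0.00103) and S100A16 (1.39e-09). The widest contrast was S100A13 with miR-205, where the change was 2.53 in HEY, -0.18 in SKOV3 and 1.67 in PC3. The GAPDH controls differed between the lines under the same miRNAs, by 3.92 in HEY, 0.01 in SKOV3 and 3.66 in PC3 with miR-205 at the 5′ probe set, and their part in these differences was not tested.

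The 9 arrays labelled untransfected enter none of the comparisons, and 14 S100 values there stood at least 1 log2 unit above the miR-NC arrays of the labelled line without overlap. The share of all genes that met this rule was not counted, so the number is not a trait shown for S100 genes. On the arrays labelled HEY the excess was S100A2 (3.65), S100A3 (2.55), S100A4 (8.77), S100A6 (3.25), S100A13 (2.01), S100A14 (1.88), S100A16 (2.05) and S100P (4.19) log2 units. On those labelled SKOV3 it was S100A14 (1.54) and S100P (6.28), and on those labelled PC3 it was S100A3 (2.0), S100A6 (2.12), S100A13 (3.70) and S100A16 (2.50). Lower by at least 1 log2 unit without overlap were S100A3 (-3.06) and S100A4 (-3.43) on the arrays labelled SKOV3, and S100A2 (-1.98), S100A4 (-1.34) and S100P (-4.18) on those labelled PC3. S100P read 11.92, 5.70 and 5.30 on the arrays labelled untransfected HEY, so that 1 of the 3 stood far above the others, and S100A2 read 10.62 on that array and 12.68 and 12.71 on the others. In the same arrays S100A4 averaged 13.82 ± 0.32 (n = 3), beside 13.10 ± 0.05 in SKOV3 with miR-NC and 5.05 ± 0.11 in HEY with miR-NC, and ERBB2 averaged 12.31. Line and label cannot be told apart here, so the effect of transfection itself was not analysed.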

How the results depend on the processing

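The counts of S100 genes past the threshold stayed within 1.5 times of the reported ones for the comparisons of lines, HEY with miR-205 (6 to 8), HEY with miR-429 (5 to 6), PC3 with miR-203a (8 to 9), PC3 with miR-205 (6 to 8) and the F-tests (8 to 9, 8 to 10 and 5 to 7), leaving-out of arrays apart. For HEY with miR-203a the count of 2 became 1 without probe sets of shared sequence, which removes the S100A4 probe set, and 0 with a 2-fold minimum. For SKOV3 with miR-203a the count of 1 became 0 with all 45 arrays, 2 in a fit per line, 0 with quantile normalization and 0 with a 2-fold minimum. SKOV3 with miR-205 had 1 in a fit per line, SKOV3 with miR-429 had 1 with a 2-fold minimum, and PC3 with miR-205 against miR-203a had 2 with a 2-fold minimum. PC3 with miR-429 went from 1 to 0 with all 45 arrays, 0 per line, 3 with quantile normalization, 5 with array medians subtracted, 2 with the mean of probe sets and 0 with a 2-fold minimum. With 1 array left out the counts ran from 1 to 3 for HEY with miR-203a, 0 to 1 for SKOV3 with miR-203a, 1 to 3 for SKOV3 with miR-429 and 0 to 1 for PC3 with miR-429. Signs reversed for S100A10 (0.39), S100A11 (0.03) and S100A16 (0.32) in PC3 with miR-429 with array medians subtracted. As deposited, S100A10 (-0.01 ± 0.09) and S100A16 (-0.08 ± 0.13) had not passed there. Signs also reversed for S100A10 in PC3 against SKOV3 with quantile normalization (0.25) and for S100A13 on its other probe set in HEY with miR-429 (-1.02). In SKOV3 with miR-429 that S100A13 probe set gave no difference past the threshold (0.01 ± 0.19). Beyond what fewer arrays or a higher bar explain by construction, the cause was not tested. With the replicate number as a block, S100A10 (adjusted p = 0.0642) and S100A11 (0.055) lost the threshold in HEY with miR-205, where 6 of 8 calls stood, and S100A10 (0.175) in PC3 against SKOV3. The block changed no other call. S100A3, S100A14 and S100P had group means below 4.89 in 4, 4 and 5 of 12 groups, where signal over background limits the size of a change.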
